A study of Mus musculus with 32 samples.

Results

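Transcripts of 10 genes of the neutrophil's granules and cytosol were followed across 32 mouse liver arrays: S100a8, S100a9, Camp, Ltf, Ngp, Prtn3, Elane, Mpo, Lcn2 and Retnlg. They were chosen by name: every probe that was not a control spot and carried one of these gene names in the scanner files was taken, which gave 12 probes of 55681 and 10 genes of 34779, and all 10 genes passed the filter on dim probes that left 21710 genes for testing. The arrays came from livers of male C57/BL6 mice, whose age is not given in the sources used here, in 8 groups of 4 that the labels call biological replicates. At baseline, mice ate a standard diet (STD), ate a methionine and choline deficient diet for 3 weeks (MCD), ate the standard diet with a dual agonist of the GLP1 and glucagon receptors given every other day for 2 weeks at a stated 4.4 mg/kg/day (STD_AG), or ate the deficient diet with the agonist started after its first week (MCD_AG). The other 4 groups (STD_PH, MCD_PH, STD_AG_PH and MCD_AG_PH) received the same diets and treatments before and after removal of 70% of the liver, and were taken 2 weeks after that partial hepatectomy. No genetic change is named in the labels, and every group was whole liver.

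Neutrophils pack antimicrobial proteins into granules in the order in which they mature in the marrow. Primary granules, filled at the promyelocyte stage, hold myeloperoxidase (Mpo) and the serine proteases elastase (Elane) and proteinase 3 (Prtn3). Secondary granules follow and hold lactoferrin (Ltf), the cathelicidin precursor (Camp), neutrophilic granule protein (Ngp) and lipocalin 2 (Lcn2), while the calgranulins S100a8 and S100a9 fill the cytosol of the mature cell and Retnlg encodes a resistin-like protein of mature neutrophils. Transcripts of the primary and secondary granules are mostly shut down before the cell leaves the marrow. Lcn2 is also made by hepatocytes in the acute phase response, and the calgranulins by monocytes, so neither is a neutrophil transcript alone in liver.

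The 4 slides each carried 2 groups: STD with MCD, STD_AG with MCD_AG, STD_PH with STD_AG_PH, and MCD_PH with MCD_AG_PH. Only 2 kinds of comparison therefore stayed on 1 slide, that of the diets before surgery and that of the agonist following surgery, and in both the groups lay in different rows of the slide. All other simple comparisons cannot be told apart from the slide. Those of hepatectomy also cannot be told apart from the scanner or from the longer time on diet and agonist. The share of probes with a signal well above background was 43% on the lowest array and 69.1% on the highest, and the number of arrays limits the precision. The hepatocyte genes Alb and Apoa1 were above background on every array, with group means of 9.58 to 10.32 and 7.78 to 9.20 on the log2 scale used below. In the submitters' processed table, 16 of 32 columns matched, by rank correlation, the array of another group (MCD exchanged with STD_AG, and MCD_PH with STD_AG_PH), always with the same replicate number. Groups below are those of the scanner files' own sample records, and the values under the table's labels are given where they differ. Nothing in the labels beyond the word biological says how the 4 livers of a group were kept, so p-values measure the spread between these samples.

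A level below is log2 of the processed spot signal minus the 75th percentile of that array, so 0 is the signal that 75% of its spots fell under. Levels of different probes were not ranked against each other; for Prtn3 and Elane the change between groups of their within-array difference was tested. Differences are log2 differences of group means ± the standard error of the limma model over all 8 groups, and a gene was called when its p-value, adjusted by the Benjamini-Hochberg method over all 21710 genes, was under 0.05. In whole liver, fewer cells of a type and less RNA per cell cannot be told apart. Statements that arrays of groups did not overlap describe the members alone. The share of all genes without overlap is given only for the agonist on the deficient diet after hepatectomy. S100a8, S100a9, Camp, Elane and Lcn2 were well above background on all 32 arrays, Retnlg on 30, Prtn3 on 26, Ngp on 20, Ltf on 19 and Mpo on 16. On mm9 the tested probes map to chr3:90473778-90473837 (S100a8), chr3:90496573-90496632 (S100a9), chr9:109749911-109749970 (Camp), chr9:110324266-110324814 (Ngp, with a gap inside the span), chr9:110942873-110942932 (Ltf), chr11:87617840-87617899 (Mpo), chr2:32240199-32240258 (Lcn2) and chr16:48874468-48874527 (Retnlg), and those of Prtn3 and Elane are given with their values.

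**Figure D1:**
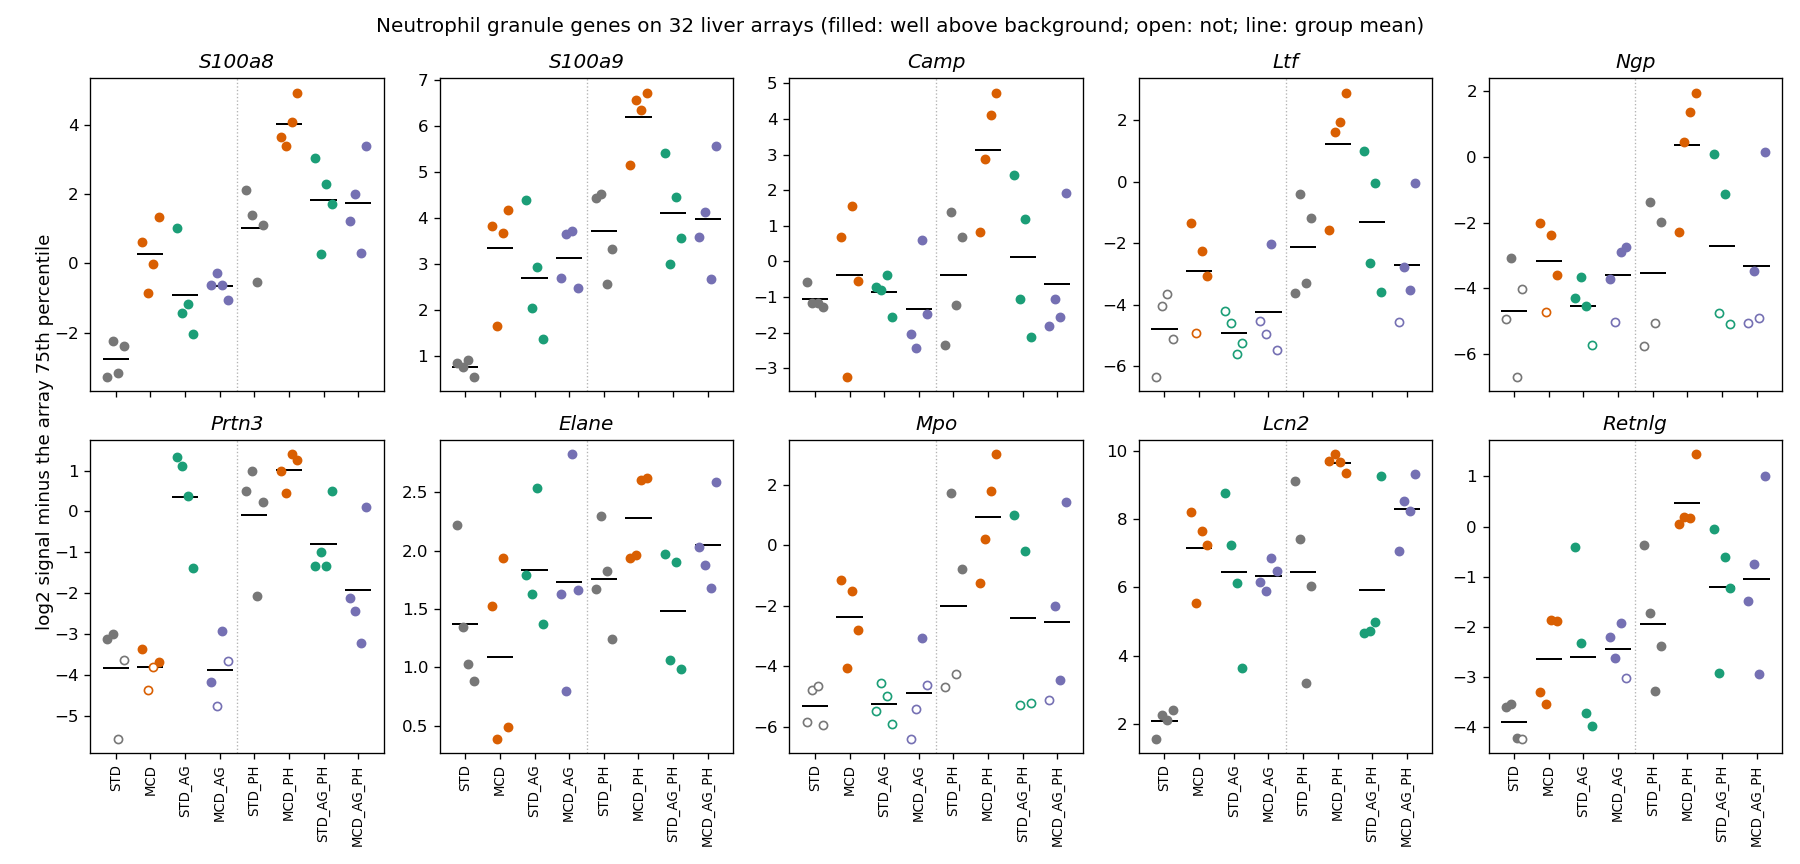
Level of each of the 10 genes on each of the 32 arrays (log2 signal minus the array 75th percentile), by group, with replicates 1 to 4 from left to right, filled points well above background, open points not, and a line at the group mean. MCD_PH has the highest mean for all 10 genes, while Elane spans only 2.44 over all arrays.

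S100a8, a subunit of calprotectin the calcium-binding protein of neutrophils and monocytes, was lowest on the untreated standard diet. Its 4 STD arrays read -3.29, -2.24, -3.17 and -2.38, its MCD arrays 0.63, -0.84, -0.01 and 1.35, its STD_AG arrays 1.03, -1.43, -1.17 and -2.05, and its MCD_AG arrays -0.63, -0.29, -0.63 and -1.06. After hepatectomy the STD_PH arrays read 2.13, 1.39, -0.54 and 1.10, the STD_AG_PH arrays 3.04, 0.27, 2.29 and 1.71, the MCD_PH arrays 3.65, 3.41, 4.10 and 4.94, and the MCD_AG_PH arrays 1.22, 2.02, 0.29 and 3.41. The STD arrays lay below every other array, and MCD_PH and its nearest neighbour in the order of means, STD_AG_PH, did not overlap, whereas the 5 steps between the second and the seventh group all overlapped. S100a9, the other calprotectin subunit, had the same lowest and highest group, with means of 0.76 ± 0.16 (SD, n = 4) in STD and 6.19 ± 0.71 in MCD_PH, and means from 2.69 to 4.11 in the other 6. Retnlg ran from -3.89 ± 0.38 in STD to 0.47 ± 0.65 in MCD_PH, and every neighbouring pair of groups in its order overlapped.

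Lcn2, the siderophore-binding lipocalin, had the widest spread of group means of the 10, 7.57. Its STD arrays read 1.58, 2.26, 2.11 and 2.40, its MCD arrays 8.22, 5.55, 7.66 and 7.24, its STD_AG arrays 8.78, 7.24, 6.14 and 3.64, and its MCD_AG arrays 6.16, 5.89, 6.87 and 6.48. After hepatectomy it read 9.11, 7.43, 3.20 and 6.05 in STD_PH, 4.66, 4.73, 5 and 9.27 in STD_AG_PH, 9.69, 9.91, 9.68 and 9.35 in MCD_PH, and 7.07, 8.52, 8.25 and 9.31 in MCD_AG_PH. The 4 STD arrays lay below the other 28, the MCD_PH arrays lay above the other 28, and single arrays stood out within STD_PH and STD_AG_PH. The other secondary granule genes had smaller spreads of group means, from 4.47 for Camp to 6.13 for Ltf. Ltf, an iron-binding protein, had means from -4.91 ± 0.63 in STD_AG, where no array was above background, to 1.22 ± 1.93 in MCD_PH. Camp ran from -1.34 ± 1.34 in MCD_AG to 3.14 ± 1.72 in MCD_PH, and Ngp from -4.68 ± 1.55 in STD to 0.38 ± 1.88 in MCD_PH, with every neighbouring pair of groups overlapping for all 3 genes.

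Mpo, which makes hypochlorous acid in the phagosome, was measured by the brighter of its 2 probes, which was not above background on any STD or STD_AG array, whereas the dimmer probe was on STD replicate 2 (-4.37). The brighter probe read -1.14, -4.05, -1.50 and -2.79 in MCD and, among the MCD_AG arrays, was above background only on replicate 3, at -3.07. After hepatectomy the arrays of a group split widely, at -4.70, 1.74, -4.27 and -0.78 in STD_PH, 1.01, -5.27, -0.19 and -5.21 in STD_AG_PH, -1.24, 0.21, 1.80 and 3.03 in MCD_PH, and -5.11, -2, -4.47 and 1.45 in MCD_AG_PH. Its SD within those 4 groups was 1.86 to 3.30, against 0.38 to 0.53 for Elane.

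Prtn3 and Elane lie side by side on mouse chromosome 10 and are both promyelocyte proteases, yet their probes did not share a pattern here. Each gene was read by a single probe. That of Elane was well above background on all 32 arrays, also in STD, where the tested probes of Ltf and Mpo were on none. Whether it reports Elane alone was not tested. The Prtn3 probe maps to chr10:79343869-79344685 (mm9, with a gap inside the span) and the Elane probe to chr10:79350902-79350961, 6.22 kb on. Prtn3 read -3.12, -2.99, -5.56 and -3.63 in STD, -3.38, -4.36, -3.82 and -3.69 in MCD, 1.33, 1.11, 0.37 and -1.39 in STD_AG, and -4.17, -4.77, -2.93 and -3.67 in MCD_AG. After hepatectomy it read 0.49, 0.98, -2.07 and 0.24 in STD_PH, -1.34, -1, -1.34 and 0.51 in STD_AG_PH, 0.99, 0.45, 1.41 and 1.25 in MCD_PH, and -2.11, -2.43, -3.23 and 0.12 in MCD_AG_PH. The STD, MCD and MCD_AG arrays lay below all arrays of STD_AG, STD_PH, STD_AG_PH and MCD_PH, and the MCD_AG_PH arrays overlapped both sets, while Elane kept group means between 1.09 and 2.28 throughout. The within-array difference Prtn3 minus Elane was higher by 3.72 in STD_AG than in STD (exact permutation test, two-sided, p = 0.0286, which is the smallest that 4 against 4 allows). With the same exact p of 0.0286 it changed by -4.14 from STD_AG to MCD_AG, by 3.34 from STD to STD_PH, by 3.64 from MCD to MCD_PH and by -2.70 from MCD_PH to MCD_AG_PH. These 5 comparisons were picked after the values were seen, and in each the Prtn3 arrays of the 2 groups did not overlap. Their adjusted p was 0.0286 as well, but it covers these 5 alone and does not correct for the choice. The p-values are therefore only descriptive. In each of STD, MCD and MCD_AG, Prtn3 was above background on 2 of 4 arrays.

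The promoters of 6 of these genes are shown so that the neighbours that parted (Prtn3 and Elane), a pair that moved together from array to array (Ltf and Mpo), the gene called in the most comparisons (S100a8, in 7 of 14) and a gene that hepatocytes also make (Lcn2) can be read beside their values. All 10 genes had an entry in the RefSeq promoter table (build GRCm38.p6), from which the 250 bases before the start of transcription are printed 5′ to 3′ on the gene's strand. Capitals mark any match, on either strand, to 5 motifs searched: the C/EBP motif TTGCNNAA, the PU.1 motif GAGGAA, the STAT motif TTCNNNGAA, the RUNX motif TGTGGT and the TATA motif TATAAA. The windows are chr10:79879417-79879666 (plus strand) for Prtn3, chr10:79886062-79886311 (plus strand) for Elane, chr9:111019042-111019291 (plus strand) for Ltf, chr11:87793534-87793783 (plus strand) for Mpo, chr3:90668821-90669070 (plus strand) for S100a8 and chr2:32387740-32387989 (minus strand) for Lcn2.
Prtn3: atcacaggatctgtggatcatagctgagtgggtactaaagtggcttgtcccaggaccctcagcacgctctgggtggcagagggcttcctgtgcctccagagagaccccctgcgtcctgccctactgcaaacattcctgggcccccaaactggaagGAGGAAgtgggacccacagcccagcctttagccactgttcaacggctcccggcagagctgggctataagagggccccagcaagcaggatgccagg
Elane: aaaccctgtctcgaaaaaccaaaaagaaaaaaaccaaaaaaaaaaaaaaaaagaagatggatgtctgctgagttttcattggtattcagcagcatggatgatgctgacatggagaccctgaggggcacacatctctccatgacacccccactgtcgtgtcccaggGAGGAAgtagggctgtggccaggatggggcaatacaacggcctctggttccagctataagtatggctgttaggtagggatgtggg
Ltf: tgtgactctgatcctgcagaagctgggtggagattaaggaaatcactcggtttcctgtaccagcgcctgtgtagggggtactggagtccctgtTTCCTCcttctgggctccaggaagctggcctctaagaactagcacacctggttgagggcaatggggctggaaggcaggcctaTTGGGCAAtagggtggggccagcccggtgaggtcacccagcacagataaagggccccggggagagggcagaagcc
Mpo: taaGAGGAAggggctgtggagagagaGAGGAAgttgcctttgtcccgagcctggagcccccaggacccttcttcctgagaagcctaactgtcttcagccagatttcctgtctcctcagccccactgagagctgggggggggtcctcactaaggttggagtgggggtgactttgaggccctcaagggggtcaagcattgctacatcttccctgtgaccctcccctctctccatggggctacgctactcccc
S100a8: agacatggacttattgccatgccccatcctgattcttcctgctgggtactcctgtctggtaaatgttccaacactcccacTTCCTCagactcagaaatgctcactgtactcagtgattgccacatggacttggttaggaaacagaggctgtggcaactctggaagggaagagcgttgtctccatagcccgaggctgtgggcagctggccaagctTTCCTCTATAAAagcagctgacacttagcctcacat
Lcn2: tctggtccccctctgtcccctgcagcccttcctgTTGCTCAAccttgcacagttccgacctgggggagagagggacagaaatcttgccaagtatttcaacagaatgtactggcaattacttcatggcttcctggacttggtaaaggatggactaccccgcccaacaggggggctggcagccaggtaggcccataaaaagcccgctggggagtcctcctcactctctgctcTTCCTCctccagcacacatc

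GAGGAA was found in 6 of the 10 windows (Prtn3, Elane, Mpo, Ltf, S100a8 and Lcn2), against 23.3% of 32851 windows of the same length in the table. In Prtn3 its first base lay 95 bases before the start and in Elane 85 bases before it, so the neighbours that differed in level both hold this match. TTGCNNAA was found in 5 windows (S100a9, Ltf, Ngp, Lcn2 and Retnlg), against 9.56% of all windows, with 2 matches in Ngp. TGTGGT was found only in S100a9 (14% of all windows), TATAAA only in S100a8 (12.4%), where it directly follows a PU.1 match, and TTCNNNGAA in none of the 10 (7.02%). No motif matches overlapped one another in these windows. Matches are letters in a window and were not tested as binding sites.

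At baseline without agonist, the deficient diet was set against the standard diet on 1 slide. S100a8 rose by 3.06 ± 0.65 (adjusted p = 0.0012, limma), S100a9 by 2.57 ± 0.63 (adjusted p = 0.0038) and Lcn2 by 5.08 ± 0.99 (adjusted p = 0.000519), an 8.32-fold rise for S100a8, with no overlap between the groups for any of the 3. These were 3 of 10 genes higher and none lower, where 10.7% of all tested genes were called higher. The median over the 10 was 1.70, against -0.13 over all genes. Mpo did not pass, at 2.93 ± 1.40 (adjusted p = 0.119) by the brighter probe, which was above background on all 4 MCD arrays and no STD array. The dimmer Mpo probe differed by 0.66 and was above background on 1 array of each group. Prtn3 (0.01 ± 0.68) and Elane (-0.28 ± 0.39) differed by less than their standard errors. The 3 calls held when any 1 of the 8 arrays was left out, but under the labels of the processed table the called members were Lcn2 (4.54) and Prtn3 (2.29), while S100a8 stood at 1.12 (adjusted p = 0.239) and S100a9 at 1.72 (adjusted p = 0.0859).

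Beside this rise, 12 of 17 tested monocyte and macrophage markers rose as well, such as Trem2 (4.62 ± 0.82) and Vsig4 (2.30 ± 0.45), and their summed linear level, in units of the array 75th percentile, went from 46.9 to 83.4 on STD arrays to 108 to 232 on MCD arrays. Of 12 tested neutrophil surface and effector markers, Clec4d (2.88 ± 0.75) and Il1r2 (2.35 ± 0.78) rose and 10 did not pass, and the summed level of the 12 overlapped, at 50.2 to 91.0 on STD and 60.4 to 109 on MCD arrays. Ly6g, the surface protein that defines mouse neutrophils, passed in none of the 14 comparisons, with group means from -0.83 to 0.04. Summed levels of other cell types also separated: lymphocyte markers went from 73.2 to 157 on STD to 22.5 to 31.6 on MCD arrays, hepatocyte markers from 4800 to 7280 to 3670 to 4060, eosinophil, basophil and mast cell markers from 0.897 to 2.13 to 3.08 to 9.16, and platelet markers from 3.21 to 5.12 to 6.26 to 9.23. The part of these markers in the members' values was not tested.

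With the agonist on both sides, the same diet comparison gave a different member. Prtn3 fell by 4.24 ± 0.68 (adjusted p = 0.000104), with no overlap, and the other 9 did not pass. Prtn3 was not above background on 2 of 4 MCD_AG arrays, and its difference was -2.20 (adjusted p = 0.00241) with normexp background correction. So 1 of 10 members was lower, where 7.07% of all genes were. S100a8 differed by 0.25 ± 0.65, S100a9 by 0.45 ± 0.63 and Lcn2 by -0.10 ± 0.99. Of 26 hepatic acute phase genes, 10 were lower in this comparison and none higher, among them Steap4 (-3.87 ± 0.55) and Saa2 (-3.82 ± 0.79), and 5 of 17 monocyte and macrophage markers were lower. The Prtn3 call held in all 8 refits with 1 array left out, and was absent under the labels of the processed table (-0.07, adjusted p = 0.936).

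The diet by agonist interaction at baseline, which cancels an additive slide effect, tested whether the diet differences differed with and without agonist. It was below 0 for Prtn3 (-4.25 ± 0.96, adjusted p = 0.00579), Lcn2 (-5.18 ± 1.40, adjusted p = 0.0172) and S100a8 (-2.80 ± 0.93, adjusted p = 0.0479), 3 of 10 members, where 4.94% of all genes were called in that direction. The S100a8 call was lost in 11 of 16 refits with 1 array left out (adjusted p up to 0.119), while those of Prtn3 and Lcn2 held in all 16. S100a8 also lost its call with normexp (-1.85, adjusted p = 0.104), with no filter (adjusted p = 0.0576) and with a filter of 3 of 4 arrays (adjusted p = 0.0515). With normexp background correction the Prtn3 value was -1.67 (adjusted p = 0.0713) and the call was lost. S100a9 stood at -2.13 ± 0.90 (adjusted p = 0.119), and passed without MCD replicate 2 (-2.69, adjusted p = 0.0468). In the same test 9 of 17 monocyte and macrophage markers and 7 of 26 acute phase genes were also below 0 past the threshold and none above.

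The agonist at baseline was compared across slides. On the standard diet, Prtn3 rose by 4.18 ± 0.68 (adjusted p = 0.000874) and Lcn2 by 4.36 ± 0.99 (adjusted p = 0.0101), 2 of 10 members, against 3.31% of all genes called higher. Prtn3 was not above background on STD replicates 3 and 4, and its difference was 2.17 (adjusted p = 0.00445) with normexp background correction. S100a8 (1.87 ± 0.65, adjusted p = 0.0809) and S100a9 (1.92 ± 0.63, adjusted p = 0.0633) did not pass, although all 4 treated arrays lay above all 4 untreated ones for both. Camp, Ltf, Ngp and Mpo lay within 0.19 of 0 in either direction. The tested probes of Ltf and Mpo were above background on no array of either group, and that of Ngp on 1 STD and 3 STD_AG arrays. The differences of Ltf and Mpo therefore do not show whether these genes changed. That of Ngp is uncertain, since most STD arrays were dim. The Lcn2 call was lost without STD_AG replicate 1 (3.59, adjusted p = 0.0561), and S100a8 (2.25, adjusted p = 0.0474) and S100a9 (2.36, adjusted p = 0.0303) passed without STD_AG replicate 4, the array with the lowest value in the group for Lcn2, Prtn3, S100a8 and S100a9. With the processed table's labels, Lcn2 (4.98), S100a9 (3.04) and S100a8 (2.05) were called and Prtn3 stood at 0.04. Beside Prtn3 and Lcn2, 7 of 26 acute phase genes were higher and none lower, such as Mt2 (5.08 ± 0.82) and Apcs (2.50 ± 0.43), and 7 of 17 monocyte and macrophage markers were higher.

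On the deficient diet, no member was called for the agonist at baseline by limma, where 13.3% of all genes were called in either direction. No member had an unadjusted p under 0.05 either, but the share of all genes at that threshold is not given here. Point estimates ran from -2.50 ± 1.40 for Mpo to 0.64 ± 0.39 for Elane. Under the labels of the processed table Prtn3 was lower (-2.32, adjusted p = 0.00148).

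After hepatectomy without agonist, the diets were again compared across slides. Higher in MCD_PH than in STD_PH were 7 of 10 members, namely Ngp (3.92 ± 1.19), Camp (3.51 ± 1.02), Ltf (3.34 ± 1.06), Lcn2 (3.21 ± 0.99), S100a8 (3.01 ± 0.65), S100a9 (2.48 ± 0.63) and Retnlg (2.40 ± 0.73), with adjusted p-values from 0.00319 for S100a8 to 0.0375 for Ltf. None was lower, and 5.52% of all genes were called higher. Prtn3 (1.12 ± 0.68), Elane (0.52 ± 0.39) and Mpo (2.95 ± 1.40, adjusted p = 0.178) did not pass. The Mpo difference was larger than those called for S100a9 and Retnlg, but so was its standard error. The median over the 10 was 2.98, against -0.04 over all genes, and the second Camp probe gave 3.26 ± 0.89 (adjusted p = 0.0175). Arrays of the 2 groups did not overlap for S100a8, S100a9, Lcn2 and Retnlg, but did for Camp, Ltf and Ngp, which were high on STD_PH replicates 2 and 4. The share of all genes without overlap is not given for this comparison, so whether that is particular to the members is not known.

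These calls depended on single arrays. S100a8 passed in all 8 refits with 1 array left out and S100a9 in 7, but each of the other 5 was lost in 5 of 8. Leaving out STD_PH replicate 3, which was lowest in its group for S100a8, S100a9, Prtn3, Lcn2 and Retnlg, left S100a8 alone (S100a9 was then at 2.10, adjusted p = 0.0531). From these 8 arrays alone 3 members passed, and under the labels of the processed table none did. With normexp background correction Lcn2 did not pass (3.06, adjusted p = 0.0598). Some other neutrophil-related genes rose in the same comparison. They were 6 of 20 of the mature neutrophil list, led by the stefins Stfa1 (3.83 ± 0.63) and Stfa2 (2.23 ± 0.49), and Cxcr1 (2.22 ± 0.39), a chemokine receptor. The summed level of the 12 neutrophil surface and effector markers overlapped, at 71 to 109 on STD_PH and 86.3 to 147 on MCD_PH arrays. Among hepatic acute phase genes 4 of 26 rose and none fell, such as Apcs (2.99 ± 0.43). None of 17 monocyte and macrophage markers passed, and their summed level overlapped, at 112 to 607 on STD_PH and 207 to 410 on MCD_PH arrays.

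With the agonist on both sides, the diet comparison after hepatectomy called no member by limma, where 8.23% of all genes were called in either direction. An unadjusted p under 0.05 was found for 1 member, but the share of all genes at that threshold is not given here. S100a8 differed by -0.09 ± 0.65, S100a9 by -0.13 ± 0.63 and Lcn2 by 2.37 ± 0.99 (adjusted p = 0.142). Without STD_AG_PH replicate 4, whose Lcn2 level of 9.27 lay far above the 4.66 to 5 of the others, Lcn2 passed (3.49, adjusted p = 0.0163). Under the labels of the processed table Ltf (-2.95), Ngp (-2.60) and Prtn3 (-2.30) were called lower. Stfa1 (3.58 ± 0.63) and Cxcr1 (1.80 ± 0.39) rose here too.

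The agonist after hepatectomy was compared within a slide. On the standard diet no member was called by limma, and only 0.00921% of all genes (2 genes) were called. No member had an unadjusted p under 0.05, but the share of all genes at that threshold is not given here. Point estimates ran from -0.70 ± 0.68 for Prtn3 to 0.83 ± 1.19 for Ngp. Under the labels of the processed table, 6 members were called higher, since its columns of that name matched the MCD_PH arrays.

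On the deficient diet all 10 point estimates were lower with agonist, with a median of -2.61 against 0.04 over all genes. Prtn3 fell by 2.94 ± 0.68 (adjusted p = 0.0469), the 1 member called, where 0.221% of all genes were called lower. Ltf (-3.93 ± 1.06, adjusted p = 0.0842), Camp (-3.76 ± 1.02, adjusted p = 0.0909), Ngp (-3.69 ± 1.19, adjusted p = 0.157), Mpo (-3.48 ± 1.40, adjusted p = 0.256), S100a8 (-2.29 ± 0.65, adjusted p = 0.109) and S100a9 (-2.21 ± 0.63, adjusted p = 0.11) did not pass. In all 8 of 10 had an unadjusted p under 0.05, against 13.8% of all genes in either direction, and for 3 of 10 (S100a8, Prtn3 and Lcn2) the arrays did not overlap, against 10.2% of all genes. MCD_AG_PH replicate 4 was the highest of its group for all 10 members. Without it S100a8 (-2.85), Camp (-4.61), Ltf (-4.83) and Prtn3 were called, whereas the Prtn3 call was lost in 6 of the 8 refits, without any of replicates 1 to 3 of either group (adjusted p up to 0.161). It was also lost with no filter on dim probes (adjusted p = 0.0872), with a filter of 3 of 4 arrays (0.0544) and from these 8 arrays alone (0.0839). Under the labels of the processed table no member was called, and with its columns placed by the array they match Ltf (-2.95), Ngp (-2.60) and Prtn3 (-2.30) were. Summed marker levels were also lower with agonist, without overlap, for neutrophils (86.3 to 147 on MCD_PH, 61.9 to 74.8 on MCD_AG_PH arrays) and erythroid cells (262 to 341, 130 to 204). So were those for platelets (8.31 to 9.88, 4.36 to 7.42) and hepatocytes (3940 to 4390, 2820 to 3790). Sums of the other cell types overlapped. The part of these markers in the members' values was not tested.

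The diet by agonist interaction after hepatectomy called no member by limma, and 0.00461% of all genes (1 gene). In point estimate, 9 of 10 members lay below 0, with a median of -2.84 against 0.04, and 7 had an unadjusted p under 0.05, where 4.76% of all genes did. The lowest was Ltf (-4.72 ± 1.49, adjusted p = 0.892) and the exception Elane (0.04 ± 0.56).

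Hepatectomy against baseline was compared across slides and scanners. On the standard diet S100a8 (3.79 ± 0.65, adjusted p = 0.000548), Lcn2 (4.36 ± 0.99, adjusted p = 0.00464), Prtn3 (3.74 ± 0.68, adjusted p = 0.000869) and S100a9 (2.95 ± 0.63, adjusted p = 0.00312) rose, 4 of 10, against 6.33% of all genes. With normexp background correction Prtn3 stood at 2.05 (adjusted p = 0.00325). All 4 calls held with any 1 array left out, and Retnlg was added without STD_PH replicate 3 (2.41, adjusted p = 0.0377). Ltf was above background on all 4 STD_PH arrays and on no STD array, but did not pass (2.67 ± 1.06, adjusted p = 0.0876). With the dim arrays raised to the lowest signal well above background, its means differed 4.4-fold. Over the alternatives its difference ran from 0.79 to 3.16 and was never called. Beside the 4 called members, 16 of 17 monocyte and macrophage markers rose, such as Ly6c1 (1.54 ± 0.29). So did 5 of 6 NADPH oxidase genes, 7 of 26 acute phase genes and 3 of 12 neutrophil markers.

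On the deficient diet all 10 members were higher after hepatectomy. Prtn3 (4.84 ± 0.68, adjusted p = 8.31e-05), Ltf (4.12 ± 1.06, adjusted p = 0.0125), S100a8 (3.74 ± 0.65, adjusted p = 0.000639), Camp (3.53 ± 1.02, adjusted p = 0.0268), Retnlg (3.11 ± 0.73, adjusted p = 0.00691) and S100a9 (2.86 ± 0.63, adjusted p = 0.00431) passed, 6 of 10 against 6.46% of all genes. All 10 had an unadjusted p under 0.05, against 23.9% of all genes. Ctsg, the cathepsin of primary granules, rose too (3.01 ± 0.89, adjusted p = 0.0307), as did Mmp8, the neutrophil collagenase (2.61 ± 0.74). Beside them 9 of 26 hepatic acute phase genes rose and none fell, such as Cp (1.13 ± 0.22) and Orm3 (3.54 ± 0.97), and 2 of 17 monocyte and macrophage markers rose. The part of these genes in the members' values was not tested. The Camp call was lost without MCD replicate 2 (2.57, adjusted p = 0.132), MCD replicate 4, MCD_PH replicate 3 or MCD_PH replicate 4 (2.99, adjusted p = 0.0891), and that of Ltf without MCD replicate 2 (3.44, adjusted p = 0.0606), the lowest array of its group for all 10 members. Ngp passed without MCD_PH replicate 1 (4.44, adjusted p = 0.0249) and Elane without MCD replicate 3 (1.48, adjusted p = 0.0265). With normexp background correction both passed (Ngp 2.70, adjusted p = 0.0105, and Elane 1.73, adjusted p = 0.00207). Elane also passed with quantile normalization (1.27, adjusted p = 0.0415). From the arrays compared alone Ngp, Mpo and Lcn2 passed (adjusted p = 0.0307, 0.0409 and 0.012), while Camp did not (adjusted p = 0.0592).

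Hepatectomy was also compared under the agonist. On the standard diet with agonist, S100a8 rose by 2.73 ± 0.65 (adjusted p = 0.0123) and Ltf by 3.58 ± 1.06 (adjusted p = 0.0364). These were 2 of 10 against 2.97% of all genes. No STD_AG array was above background for Ltf. With those arrays raised to the lowest signal well above background, its means differed 9.93-fold. Prtn3 (-1.15 ± 0.68) and Lcn2 (-0.54 ± 0.99) had point estimates below 0. With normexp background correction Ltf was at 1.48 (adjusted p = 0.102). The Ltf call was lost in 6 of 8 refits, without any 1 of the STD_AG arrays or STD_AG_PH replicates 1 or 3 (2.81, adjusted p = 0.13). On the deficient diet with agonist S100a8 alone rose (2.39 ± 0.65, adjusted p = 0.0201), 1 of 10 against 3.74% of all genes, and it was lost without MCD_AG_PH replicate 2 (2.29, adjusted p = 0.0536) or replicate 4 (1.83, adjusted p = 0.0983), while Prtn3 passed without replicate 3 (2.41, adjusted p = 0.0442).

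**Figure D2:**
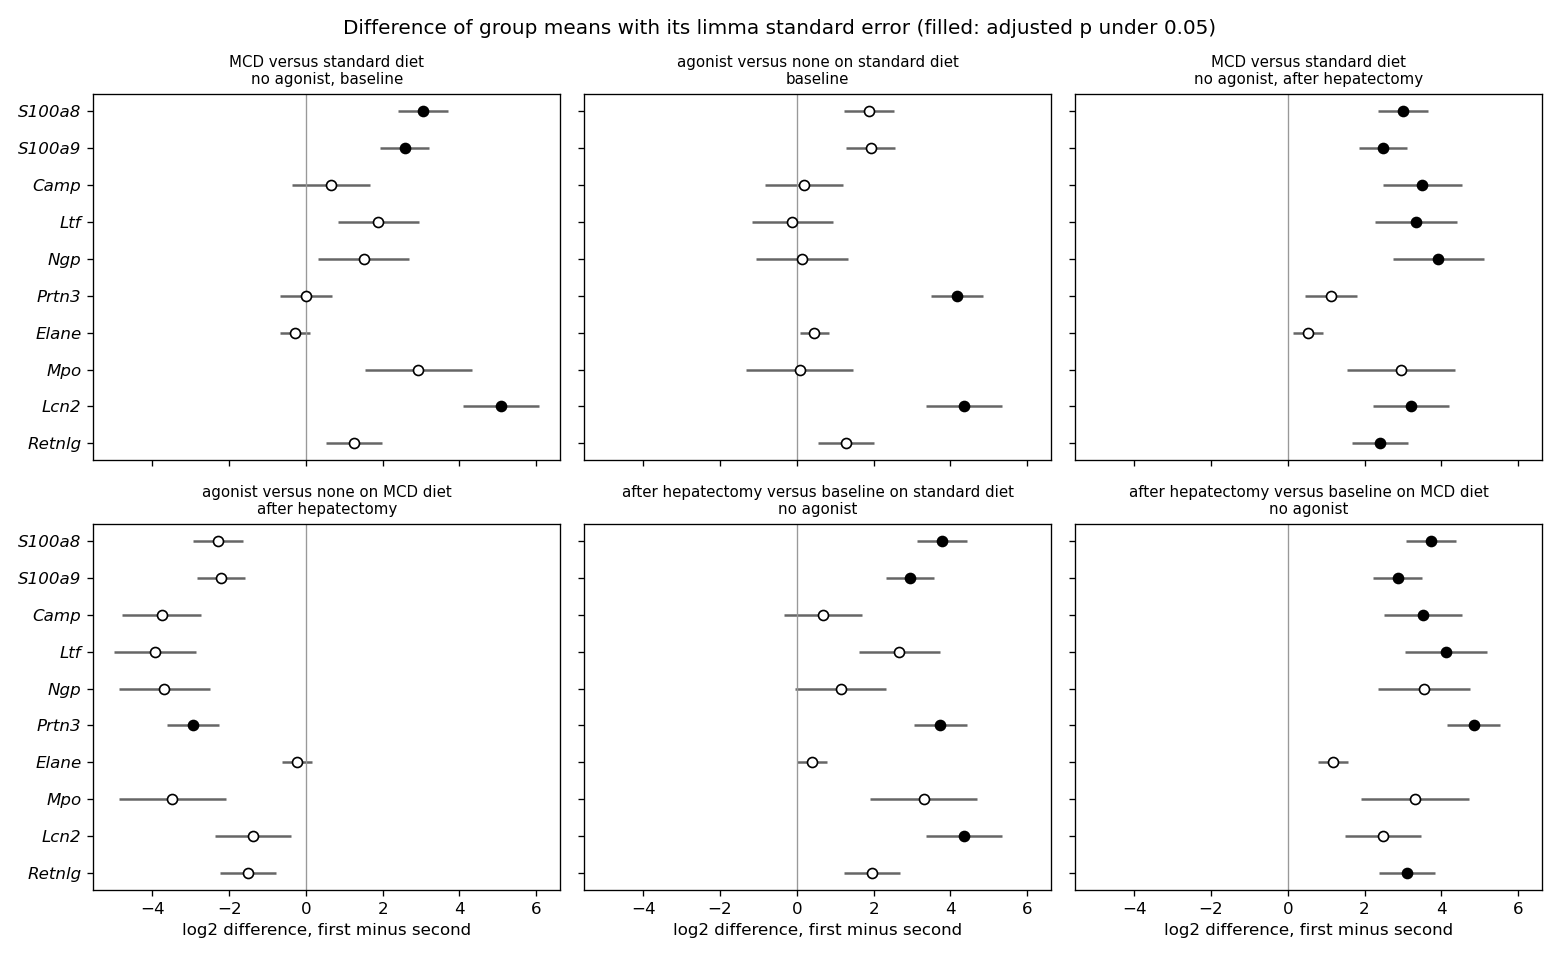
Log2 difference of group means for the 10 genes in 6 of the 14 comparisons, with bars of 1 standard error and filled points for adjusted p under 0.05. Elane lies between -0.28 and 1.19 in the 6 panels, Prtn3 and Lcn2 are the 2 filled points for the agonist on the standard diet, and 7 points are filled for the deficient diet after hepatectomy.

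Within a group, the members' levels were compared from array to array. After each gene's group mean was taken from its values, Pearson's r over the 32 arrays was above 0 for all 45 pairs, and 34 had an adjusted p under 0.05 (100000 permutations within groups, two-sided, adjusted over the 45). Pairs of other genes were not put through this test. Whether these counts are particular to the members is therefore not known. The closest pairs joined genes of different granules. Mpo went with Camp (r = 0.894, rho = 0.920, adjusted permutation p = 7.5e-05), with Ngp (r = 0.892, rho = 0.873) and with Ltf (r = 0.891, rho = 0.896). Each pair had an unadjusted permutation p of 1e-05, the smallest these permutations can give. For each pair, r was also taken without the 2 arrays farthest from the median of the gene paired with Mpo. It was then 0.899 with Camp, 0.853 with Ngp and 0.876 with Ltf. Arrays were not left out for their Mpo values. A second set held S100a8, S100a9 and Retnlg, with r from 0.818 to 0.878. Among the 16 arrays after hepatectomy r was 0.953 for Camp and Mpo and 0.983 for Ltf and Ngp, and among the 16 at baseline it was 0.815 and 0.381, where Ltf, Ngp and Mpo were often below background.

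Over all 32 arrays Lcn2 did not pass with that granule set. Its r was 0.069 with Mpo, 0.041 with Camp, 0.104 with Ltf and 0.084 with Ngp, none past the threshold (adjusted permutation p from 0.688 to 0.852), and the values differed between the baseline and hepatectomy arrays, at 0.488, 0.527, 0.548 and 0.577 at baseline and -0.041, -0.206, -0.109 and -0.102 after hepatectomy. Lcn2 passed with Prtn3 (r = 0.706, rho = 0.707, adjusted permutation p = 0.00105, r = 0.653 without the 2 arrays farthest from the Prtn3 median), S100a8 (r = 0.541, rho = 0.429, adjusted permutation p = 0.034), Retnlg (r = 0.540, rho = 0.462, adjusted permutation p = 0.034) and S100a9 (r = 0.476, rho = 0.436, adjusted permutation p = 0.0483). STD_PH replicate 1 and STD_AG_PH replicate 4 are examples. They had the highest Lcn2 of their groups (9.11 and 9.27) and Mpo not above background (-4.70 and -5.21), whereas STD_AG_PH replicate 1 had the highest Mpo (1.01), Ltf (0.98), Camp (2.42) and Ngp (0.08) of its group and the lowest Lcn2 (4.66). Prtn3 and its neighbour Elane had r = 0.371 (adjusted permutation p = 0.0548).

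**Figure D3:**
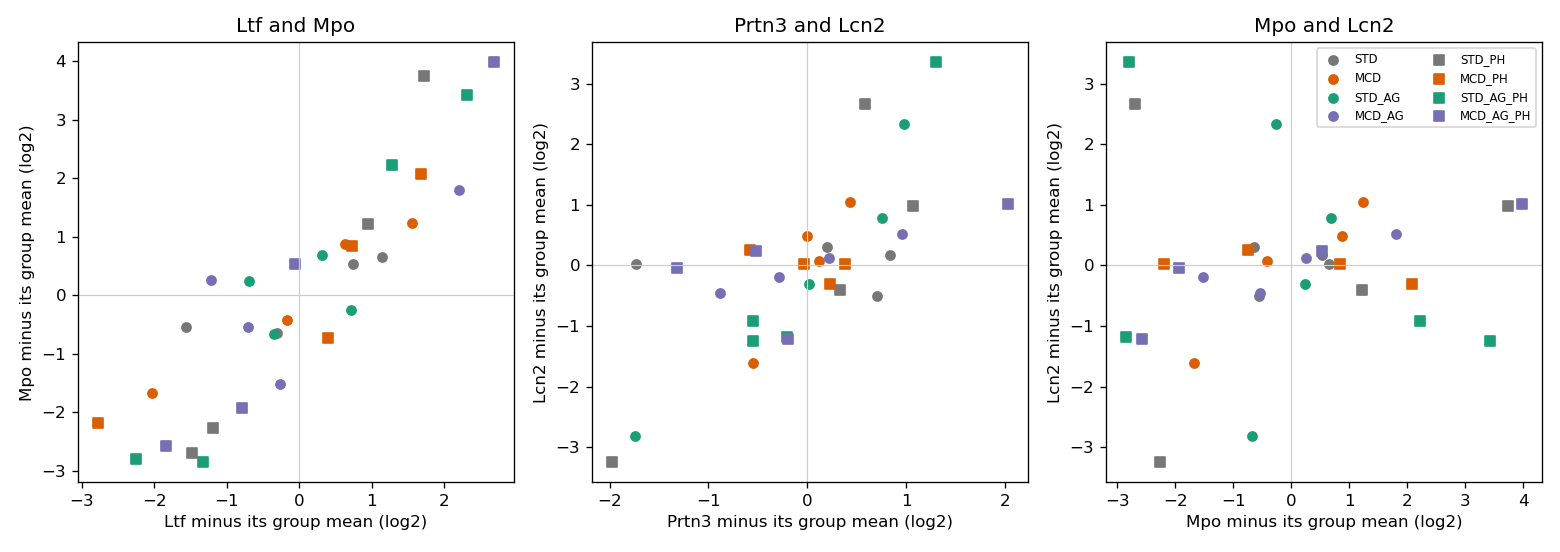
Each point is 1 of the 32 arrays, and both axes give log2 level minus the group mean (circles baseline, squares after hepatectomy). Ltf and Mpo rise together (r = 0.891), as do Prtn3 and Lcn2 (r = 0.706), while Mpo and Lcn2 do not (r = 0.069).

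**Figure D4:**
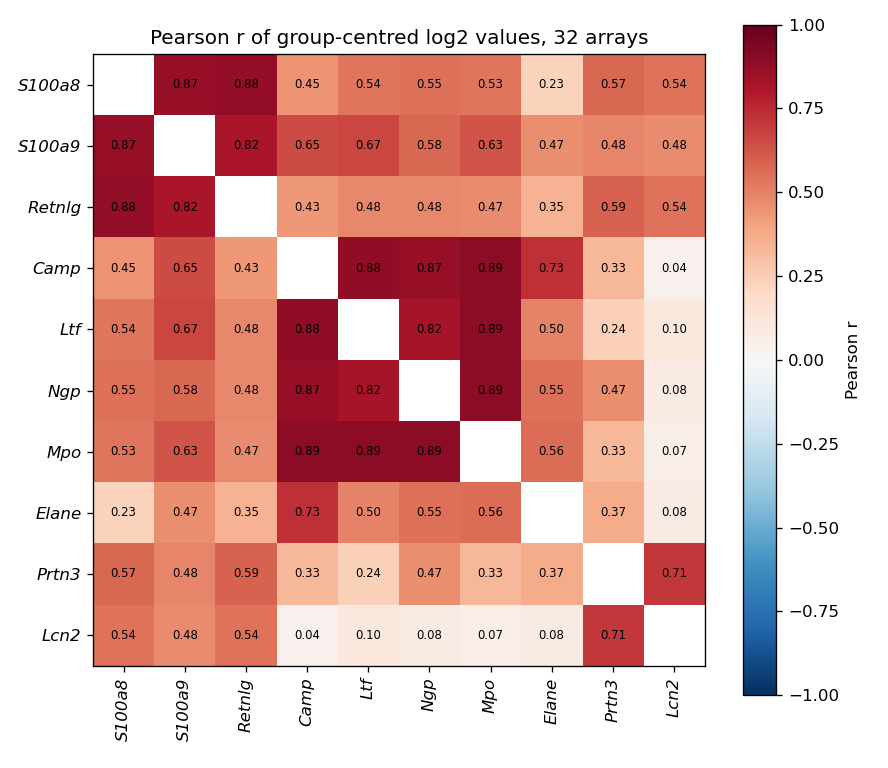
Pearson's r of group-centred log2 levels for all 45 pairs of the 10 genes over 32 arrays, with colour from -1 (blue) to 1 (red). Camp, Ltf, Ngp and Mpo form one block and S100a8, S100a9 and Retnlg another, and the lowest values are those of Lcn2 with Camp, Ltf, Ngp, Mpo and Elane.

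Outside the list, the genes with the most similar levels over the 32 arrays, groups included, were ranked by Pearson's r and the first 3 taken for each member. Ctsg was among the 3 most similar to Mpo (r = 0.887), Ltf (r = 0.833), Ngp (r = 0.825) and Camp (r = 0.787). Ifitm6 and Alox5 were among the 3 most similar to each of S100a8, S100a9 and Retnlg, with r = 0.901 for Ifitm6 and S100a8, and Chil3 was first for S100a9 (0.853) and Retnlg (0.841). Lcn2 was most like Il1r2 (0.908), the decoy interleukin 1 receptor, and Prtn3 was most like Il4ra (0.857), followed by Cyb561 (0.850) and the acute phase gene Saa2 (0.846). Elane was most like Slurp2 (0.796), and shared no gene with the other members' lists. These values of r are descriptions over arrays that share groups and slides.

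Several other granule and neutrophil genes could not be followed. Bpi, Ms4a3, Olfm4, Cd177, Mmp9 and Itgb2l were above background on 0 to 13 of 32 arrays and failed the filter, as did the chemokines Cxcl2 and Cxcl3 and the granulocyte growth factor Csf3. Of the primary granule genes outside the 10, 3 were tested and Ctsg was the only 1 to rise in any of the 14 comparisons. Serpinb1a, an inhibitor of neutrophil elastase, was lower on the deficient diet at baseline (-2.44 ± 0.60, adjusted p = 0.00395), and Slpi, another inhibitor of elastase, was higher in that comparison (2.89 ± 0.65, adjusted p = 0.00178) and on the deficient diet in the hepatectomised mice (2.73 ± 0.65, adjusted p = 0.00617). The second Mpo probe, not above background on all 4 arrays of any group, had means of -2.43 in MCD_PH, -4.78 in STD_PH and -4.93 in MCD_AG_PH.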

How the data were processed

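RNA of 32 livers was labelled with Cy3 and hybridised to 1-colour Agilent arrays with 62976 spots each. Quantification used Feature Extraction 10.7.3.1 per the file headers, which background-subtracted the deposited spot intensity, and the probes are placed on mm9. A deposited table holds the submitters' normalized values on a log2 scale, per the values themselves. The submitters' processing notes name limma. The members and gene lists were chosen with earlier results of these data known.

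Intensities were taken as log2 and scaled to each array's 75th percentile, and 0.264% of spot values flagged as outliers were left out. A probe was kept if some group had it well above background in all 4 of its arrays (30139 probes), and a gene was read by its brightest probe. limma 3.58.1 (R 4.3.3) fitted 8 group means across all 21710 genes, and the script was tested on simulated data. Named genes are all members, up to 4 genes per list with the smallest adjusted p, the 3 genes most like each member, Alb and Apoa1. Same-numbered samples mostly did not deviate together (median r 0.0167 over 112 pairs, 17 over 0.1, highest 0.442), so numbers were not used as pairs. Folds with dim arrays raised compare the mean of the brighter group with the dimmer arrays. The dimmer arrays are taken at the higher of their own signal and the lowest signal well above background. These folds leave out the standard error and are not lower bounds. Whether probes lie in an exon was not looked up. Alternatives covered background correction, scaling, filters, probes, samples left out and the table.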

Additional observations from a re-analysis of the deposited data

Results flagged for a closer look

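Among 80 sets of 4 arrays (10 genes in 8 groups), 3 held an array whose gap to the next was above Dixon's 95% critical value, and chance flags about 1 in 20. Lcn2 on STD_AG_PH replicate 4 was 9.27, with the next array at 5. Retnlg on MCD_PH replicate 4 was 1.45, with the next at 0.20. Camp on STD replicate 1 was -0.58, with the next at -1.17.

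The diet difference at baseline depended on the agonist for 3 genes by the limma interaction: Lcn2 (-5.18, adjusted p = 0.0172), Prtn3 (-4.25, adjusted p = 0.00579) and S100a8 (-2.80, adjusted p = 0.0479). S100a8 lost the call in 11 of 16 refits with 1 array left out and with normexp (-1.85), no filter, a filter of 3 of 4 arrays and the processed table (-2.06), and Prtn3 lost it with normexp (-1.67).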

How the results depend on the processing

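Of 30 called member differences, 475 of 568 alternative values kept direction and call, 92 kept direction but lost the call, and 1 reversed: Lcn2 for the diet after hepatectomy was -0.67 under the labels of the processed table. Of 2172 alternative values of uncalled differences, 46 became calls and 124 changed sign. Counts of called members moved by more than 1.5 times as follows. For the diet after hepatectomy 7 became 3 with no filter and 3 from the arrays compared alone. For the agonist on the deficient diet after hepatectomy 1 became 0 with no filter, 0 when 3 of 4 arrays above background sufficed, 0 from the arrays compared alone, 3 with normexp and 3 in the processed table with columns placed by array. For the agonist on the standard diet at baseline 2 became 4 with median scaling. For hepatectomy on the standard diet with agonist 2 became 1 with no filter and 1 from the arrays compared alone. For hepatectomy on the deficient diet with agonist 1 became 3 with normexp, and 2 each with median scaling, quantile normalization and the arrays compared alone. Under the labels of the processed table, the diet under agonist gave 0 at baseline and 3 after hepatectomy, the agonist on the deficient diet 1 at baseline and 0 after, the agonist on the standard diet after hepatectomy 6, and the diet after it 0. The processed table's 2 sets were normalized apart, so hepatectomy was not tested in it. The causes of these moves were not tested.

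With 1 array left out, counts ran from 3 to 3 and 1 to 1 for the diet at baseline without and with agonist, 1 to 4 and 0 to 0 for the agonist at baseline on the standard and deficient diets, 1 to 6 and 0 to 1 for the diet after hepatectomy, 0 to 0 and 0 to 4 for the agonist after it, 4 to 5, 4 to 7, 1 to 2 and 0 to 2 for hepatectomy in STD, MCD, STD_AG and MCD_AG, and 2 to 4 and 0 to 0 for the interactions. With the replicate number as a block, the count of called members was the same in 13 of 14 comparisons and 7 in place of 6 for hepatectomy on the deficient diet (Elane 1.19, adjusted p = 0.0355), while counts over all genes moved in most comparisons, such as 5706 in place of 5648 for the diet at baseline and 100 in place of 88 for the agonist on the deficient diet after hepatectomy. Signal over background limits Ltf, Ngp and Mpo.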

Other observations

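Ncf4, a cytosolic subunit of the phagocyte NADPH oxidase, rose on the deficient diet at baseline (1.56 ± 0.38, adjusted p = 0.00315, limma). The diet by agonist interaction was below 0 for Ncf4 (-3 ± 0.53, adjusted p = 0.00108) and Ncf1 (-2.44 ± 0.66, adjusted p = 0.0175). Cxcl1, a neutrophil chemoattractant, rose with the agonist on the standard diet (2.63 ± 0.82, adjusted p = 0.0496) and was lower on the deficient diet under agonist (-4.18 ± 0.82, adjusted p = 0.000859). Fpr1, a formyl peptide receptor, rose with the agonist on the standard diet (1.90 ± 0.47, adjusted p = 0.0165) and fell with it on the deficient diet (-2.36 ± 0.47, adjusted p = 0.00245).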
